A study of Drosophila melanogaster with 20 samples.

Results

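Embryos in which the hairpins against otk-1 and otk-2 were expressed together (genotype otk-1 RNAi otk-2 RNAi, called double RNAi embryos here) were compared with WT embryos. The comparison takes 2 double RNAi libraries and 2 WT libraries, 4 of the 20 libraries of the study, picked by their genotype labels. The comparison itself was chosen with earlier results of these data known. The study collected Drosophila melanogaster embryos laid over 24 h at 25 °C, so each library mixes young and old embryos. Its 10 genotypes had 2 libraries each (n = 2 at every value below), and the other genotypes overexpressed or silenced wnt-4, otk-1 or otk-2 alone or in pairs. The 2 libraries of otk-1 RNAi and the 2 of otk-2 RNAi are used to separate the contribution of each hairpin. Both hairpins were UAS transgenes driven by a recombined chromosome that carries a maternal and a daughterless GAL4, which is active in the female germline and then in most cells of the embryo. More than one hairpin line is listed for each otk gene, and neither the labels nor the paper says which was sequenced. Nor do they say whether single and double RNAi embryos carried the same line. They also do not say whether the WT embryos carried the GAL4 driver, or whether the 2 libraries of a genotype came from separate collections, so the spread behind the p-values may be technical.

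Otk-1 (Off-track, gene otk) and Otk-2 (gene otk2) are the fly relatives of vertebrate PTK7, transmembrane receptors with immunoglobulin domains and a kinase-like domain that lacks kinase activity. They can bind each other and Frizzled receptors, and Otk-1 binds Wnt-4, a ligand that opposes Wingless (Wg) in the ventral epidermis. In the canonical pathway Wg stabilises Armadillo (gene arm, the fly β-catenin), which with the factor Pangolin activates target genes such as engrailed. Epidermal cells of a segment then choose between making a denticle and making naked cuticle, so loss of Wg signal leaves a cuticle covered in denticles. The comparison asks which transcripts differ when both receptors are silenced.

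Total expected counts were 35479350 and 36021413 in WT and 33993227 and 40204029 in the double RNAi embryos, and 33641557 to 35765009 in the single RNAi libraries. Levels are given as CPM, the count of a gene relative to its TMM-scaled library total. A gene was called when its Benjamini-Hochberg adjusted p in edgeR's quasi-likelihood test was under 0.1. Changes are log2 fold changes ± standard error against WT unless another reference is named. The standard error was derived as the size of the change divided by the square root of the test's F statistic. A stage score was taken as the mean log2 CPM of 98 late genes (cuticle, muscle and neuron) minus that of 56 early genes (maternal, germ plasm and first zygotic). It was 0.07 and -1.05 in WT, -1.81 and -1.36 in otk-2 RNAi, -2.75 and -2.63 in otk-1 RNAi and -3.11 and -2.66 in the double RNAi embryos. The double RNAi libraries were therefore below both WT libraries in this score, and WT replicate 1 stood above all other libraries of the study. WT libraries also differed more from each other (median difference of 0.341 on the log2 scale over all genes) than those of the double RNAi (0.211). In a whole embryo, fewer cells of a type and less RNA per cell cannot be told apart.

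**Figure D1:**
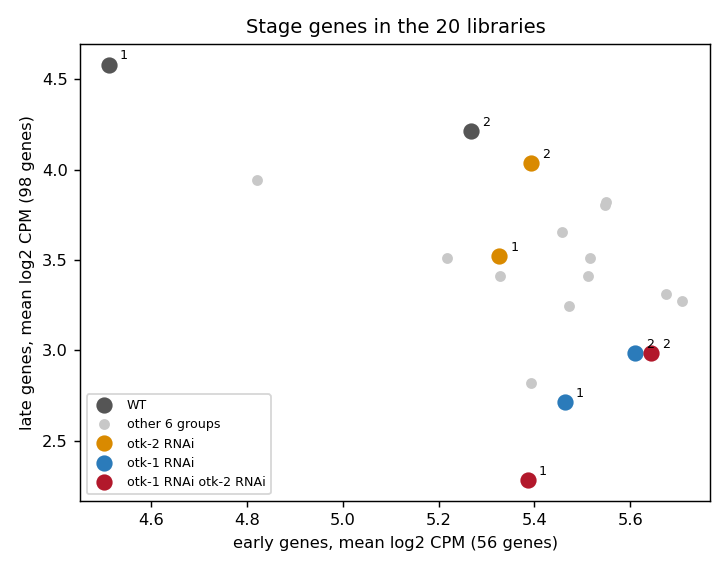
Each point is 1 of the 20 libraries, with the mean log2 CPM of 56 early genes on the x axis and of 98 late genes on the y axis, and replicate numbers beside the 4 genotypes used here. The double RNAi libraries had late means of 2.28 and 2.98 against 4.58 and 4.21 in WT, and lay close to those of otk-1 RNAi.

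Both targeted transcripts were lower than in WT. The otk transcript (2R, 12001473 to 12019846, dm6, minus strand) measured 199 and 178 CPM in WT, 56 and 46 CPM in otk-1 RNAi, 156 and 112 CPM in otk-2 RNAi and 91.3 and 60.4 CPM in the double RNAi embryos. It was reduced in the double RNAi embryos relative to WT (-1.31 ± 0.18, adjusted p = 0.000541). Its level there lay above both otk-1 RNAi libraries, a difference that did not pass the test (0.57 ± 0.18, adjusted p = 0.675). The otk2 transcript, from a gene of 2R at 12023146 to 12025272 beside otk on the same strand, measured 67.5 and 61.6 CPM in WT, 50.5 and 47.2 CPM in otk-1 RNAi, 28.4 and 23.6 CPM in otk-2 RNAi and 21.7 and 18.8 CPM in the double RNAi embryos. It was reduced against WT (-1.67 ± 0.15, adjusted p = 1.19e-05) and against otk-1 RNAi (-1.27 ± 0.14, adjusted p = 0.00102), whereas the difference from otk-2 RNAi (-0.36 ± 0.14, adjusted p = 0.165) did not pass. RSEM divides reads that fit both paralogs, and otk overlaps a long non-coding RNA gene on the other strand. Of the annotated neighbours that were tested, no gene was lower: rho-7 (0.47 ± 0.11), CG8298 (0.34 ± 0.14) and pds5 (0.52 ± 0.18) were higher than WT, and Mppe (0.24 ± 0.19), CG8321 (0.05 ± 0.14) and 3 others did not pass.

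**Figure D2:**
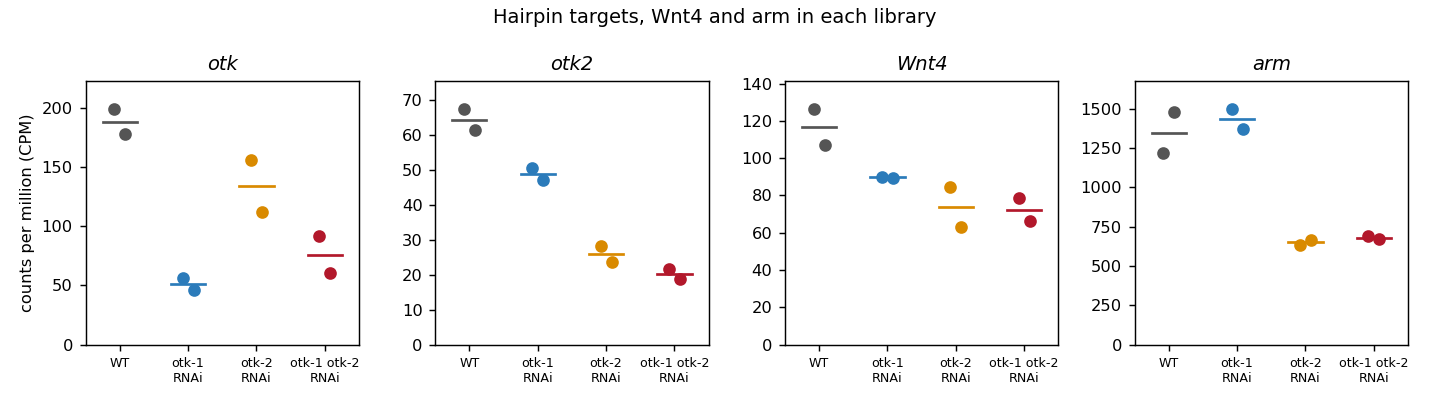
Level in CPM (y axis, linear from 0) of otk, otk2, Wnt4 and arm in each library of the 4 genotypes on the x axis. Points are libraries and lines are means of 2. Double RNAi embryos had 91.3 and 60.4 CPM of otk and 21.7 and 18.8 CPM of otk2, and arm lay between 637 and 689.5 CPM in the 4 libraries with the otk-2 hairpin.

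Among the receptors that can act beside Otk, 2 of the 3 Derailed (Ryk-type) receptors were lower. Of these, Drl-2 and drl, receptors for Wnt5, changed by -0.91 ± 0.30 (adjusted p = 0.0291) and -0.40 ± 0.13 (adjusted p = 0.0329). The muscle-specific kinase relative Nrk (-0.44 ± 0.22), the Ror kinase (-0.17 ± 0.23), the third Derailed-type receptor dnt (0.03 ± 0.14) and PlexA, a semaphorin receptor that acts with Otk in axons (0.27 ± 0.14), did not pass. With otk and otk2 themselves, 4 of 8 members were lower and none was higher, where 46.8% of all tested genes passed in either direction and 24.4% passed as lower. The hairpins target otk and otk2, so their fall was set by the design and the count of 4 cannot be weighed against these shares. Without double RNAi replicate 2, the targets otk (-1.04) and otk2 (-1.58) stayed lower, and the calls of drl and Drl-2 were lost.

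Across the transcriptome, 5223 of 11154 tested genes differed between the double RNAi and WT embryos, 2506 of them higher (22.5%) and 2717 lower (24.4%). Changes beyond 2-fold were more often reductions: 534 genes rose and 1545 fell past that size, and 118 rose and 510 fell by more than 4-fold. The 2 libraries of one genotype did not overlap those of the other at 7435 genes (66.7%). Called genes that were higher had a median effective length of 1434 bases and a median count of 1658, those that were lower 1972 bases and 311 counts, and all tested genes 1586 bases and 905 counts. On the small chromosome 4, 8.6% of 93 tested genes were higher and 26.9% lower, while X had 25.2% higher and 22.2% lower. The count fell to 2160 without WT replicate 1 and to 2876 without double RNAi replicate 2, and 20 genes passed once the stage score entered the fit. Both double RNAi libraries scored below both WT libraries, so genotype and score cannot be told apart in full.

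Among genes within the limits of the naming rule given below, the largest rise was that of GILT3, which encodes a lysosomal thiol reductase. These limits are a minimum mean count, libraries that do not overlap between the genotypes, and no CG or CR numbers. GILT3 measured 2.53 and 2.17 CPM in WT, 46.7 and 46.2 CPM in otk-1 RNAi, 13.7 and 20.1 CPM in otk-2 RNAi and 42.3 and 51.4 CPM in the double RNAi embryos, so all 6 RNAi libraries lay above both WT libraries, and its change was 4.31 ± 0.33, adjusted p = 3.86e-06. GILT1 was also higher (0.46 ± 0.14) and GILT2 (0.19 ± 0.13) did not pass. Transcripts of the egg followed among the rises: gd, a protease of the dorsoventral cascade (0.444 and 1.17 CPM in WT and 5.8 and 10.1 CPM in the double RNAi embryos, 3.30 ± 0.54, adjusted p = 0.00133), pgc, which silences transcription in pole cells (2.94 and 15.8 CPM in WT and 39.5 and 135 CPM in the double RNAi embryos, 3.22 ± 0.67, adjusted p = 0.00422), and the egg thioredoxin dhd (3.05 ± 0.70). In both double RNAi libraries these were above both WT libraries, although pgc differed more than 3-fold between the double RNAi replicates. The remaining large rises were Cyp6d4, Cyp6a19 and GstD3 of xenobiotic metabolism, the body colour gene y, l(3)72Dp (2.91 ± 0.33) and HSPBAP1 (2.75 ± 0.24). Under the same limits, the largest falls were Jonah proteases of the larval gut and cuticle proteins, with Jon25Bi (-4.69 ± 1.37), Jon99Fii (-4.47 ± 1.58) and Cpr64Ad (-3.81 ± 0.72) among them. Pebp1 (-3.66 ± 0.64), whose protein belongs to the phosphatidylethanolamine-binding family, was the one gene outside these families among the 10 largest falls.

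**Figure D3:**
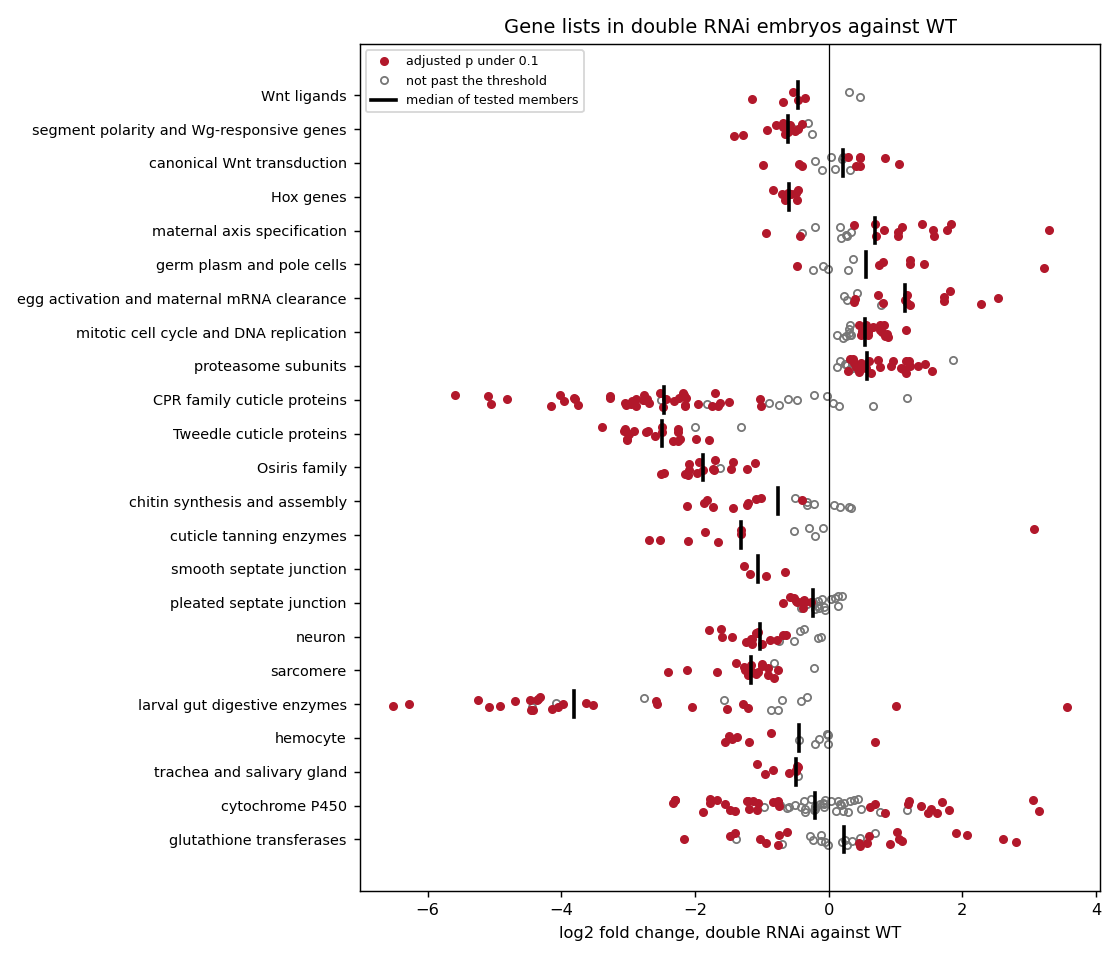
Each point is a tested gene of the list named on the y axis, placed at its log2 fold change in double RNAi against WT embryos (x axis). Red points passed an adjusted p under 0.1, open grey points did not, and black bars are list medians, from -3.81 for gut digestive enzymes to 1.13 for egg activation genes.

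Transcripts of Wnt ligands were lower or did not pass. Wnt4 measured 126 and 107 CPM in WT, 90.1 and 89.4 CPM in otk-1 RNAi, 84.5 and 62.9 CPM in otk-2 RNAi and 78.8 and 66.2 CPM in the double RNAi embryos and was reduced against WT (-0.68 ± 0.15, adjusted p = 0.00586) without overlap of the libraries. Wnt6 had the largest reduction of the family (8.88 and 9.41 CPM in WT and 4.49 and 3.75 CPM in the double RNAi embryos, -1.15 ± 0.23, adjusted p = 0.00383), and Wnt2 (-0.54 ± 0.13), Wnt5 (-0.35 ± 0.15) and wg itself (-0.46 ± 0.20) were also lower. Wnt10 (0.30 ± 0.35) and wntD (0.47 ± 0.33) did not pass. Thus 5 of 7 ligands were lower, against 24.4% of all tested genes, and none was higher. Their median was -0.46 where that of all tested genes was 0.0209. Without WT replicate 2, 3 ligands were lower and 1 was higher (median -0.29), and without double RNAi replicate 2, 3 were lower.

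Genes that form the segment pattern or respond to Wg were reduced as a group. Of 15, 12 were lower and none was higher (median -0.61), where 24.4% of all tested genes were lower. The ladybird gene lbl, expressed in segmental stripes, measured 8.13 and 7.29 CPM in WT, 4.44 and 4.29 CPM in otk-1 RNAi, 3.81 and 3.17 CPM in otk-2 RNAi and 2.88 and 2.89 CPM in the double RNAi embryos and was reduced by the largest amount (-1.42 ± 0.20, adjusted p = 0.000539). Notum, a secreted hydrolase that inactivates Wg and is itself induced by it, measured 27.8 and 49.8 CPM in WT, 37.6 and 34.4 CPM in otk-1 RNAi, 23.7 and 25.7 CPM in otk-2 RNAi and 15.8 and 16.1 CPM in the double RNAi embryos. It was lower than WT (-1.28 ± 0.27, adjusted p = 0.00422), with the double RNAi libraries below those of each single RNAi. The Wg-induced receptor fz3 changed by -0.79 ± 0.15, adjusted p = 0.00253, and the feedback inhibitor nkd by -0.40 ± 0.17, adjusted p = 0.0837. The posterior compartment genes en and inv, which Wg maintains, changed by -0.65 ± 0.25 (adjusted p = 0.0525) and -0.61 ± 0.22 (adjusted p = 0.0432). For en the values were 40.7 and 77.3 CPM in WT and 35.5 and 39.9 CPM in the double RNAi embryos, so that the double RNAi libraries lay just below WT replicate 1 and well below WT replicate 2. The ligand hh (-0.51 ± 0.20), the forkhead genes slp1 (-0.58 ± 0.19) and slp2 (-0.69 ± 0.15) and the T-box genes mid (-0.69 ± 0.23) and H15 (-0.92 ± 0.29) were lower too. For gsb (-0.55 ± 0.27), ptc, the Hedgehog receptor (-0.30 ± 0.18), and ci, its transcriptional effector (-0.26 ± 0.14), the difference did not pass.

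The 2 WT libraries differed from each other at these genes, with replicate 2 the higher for most. Without WT replicate 1, 14 of the 15 were lower (median -0.88), and without WT replicate 2, 5 were lower (median -0.28). Without double RNAi replicate 1 or 2, 7 and 5 were lower. When the stage score entered the fit the median was -1.01 and none of the 15 passed. In single RNAi embryos, 2 of these genes were lower than WT with the otk-1 hairpin (median -0.19) and 2 with the otk-2 hairpin (median -0.35). The direct comparison of the double RNAi with either single RNAi, and the test of the non-additive term, passed at none of the 15.

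**Figure D4:**
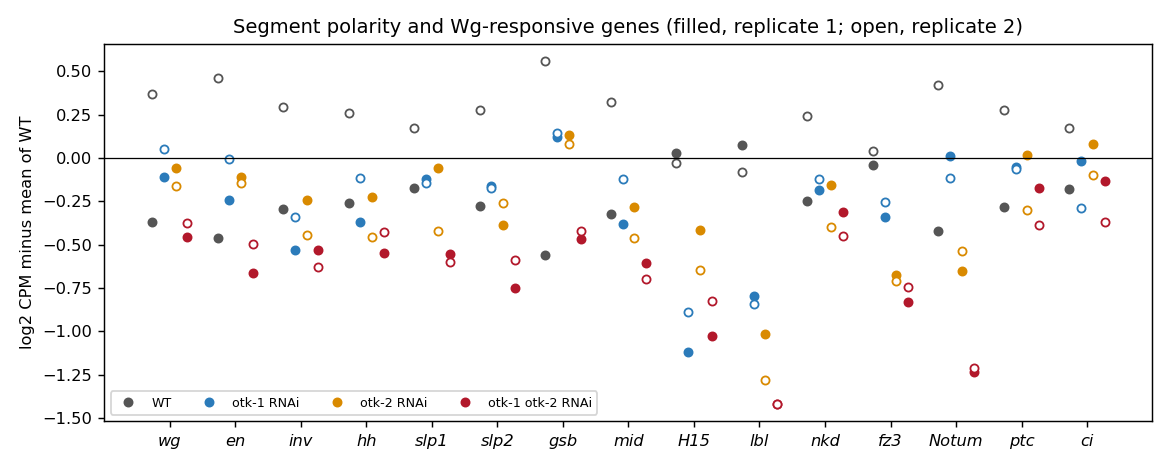
Level of each segment polarity or Wg-responsive gene (x axis) in each library as log2 CPM minus the mean of the 2 WT libraries (y axis). Filled symbols are replicate 1 and open symbols replicate 2. Double RNAi libraries (red) lay at or below both WT libraries (grey) for lbl, Notum, fz3, H15 and most others, while for gsb both, and for ptc and ci 1 of the 2, lay within the WT range.

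Components of canonical Wnt transduction moved in both directions, 7 of 17 higher and 3 lower (median 0.21). The largest reduction was that of arm, from 1219 and 1477 CPM in WT to 689.5 and 671 CPM (-0.99 ± 0.11, adjusted p = 0.000136). The 2 genotypes were well separated at arm, by more than the spread within either. The transcription factor pan (-0.45 ± 0.15), the partner of Armadillo on DNA, was lower, whereas pygo, a nuclear cofactor of Armadillo (1.05 ± 0.23), and Apc2, part of the complex that destroys it (0.84 ± 0.28), were higher. The cytoplasmic mediator dsh (0.46 ± 0.19), the kinase CkIalpha (0.47 ± 0.17) and the co-repressor gro (0.47 ± 0.16) were higher as well. Without WT replicate 1, 1 member was higher and 3 were lower, and without double RNAi replicate 1, 2 were higher and 2 lower, so most of the rises in this list rest on those libraries. Of the genes for Wg reception and secretion, the co-receptor dally (-0.43 ± 0.13) and the receptor fz2 (-0.33 ± 0.13) were lower, and wls (0.63 ± 0.16) and por (0.71 ± 0.19), which are needed to make and release Wnt proteins, were higher. Near the shares of all tested genes (22.5% higher and 24.4% lower), planar cell polarity genes gave 3 higher and 4 lower of 13 (median -0.1). Those lower included pk (-0.77 ± 0.17), stan (-0.63 ± 0.20) and mwh (-0.84 ± 0.21). These counts were 0 and 2 without WT replicate 1.

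Hox genes, which give segments their identity, were lower without exception, 8 of 8 against 24.4% of all tested genes, with a median of -0.59. The changes ranged from -0.84 ± 0.27 for pb to -0.46 ± 0.15 for Antp, and included Ubx (85.3 and 103 CPM in WT and 69.5 and 53.8 CPM in the double RNAi embryos, -0.62 ± 0.14, adjusted p = 0.00687), abd-A (-0.69 ± 0.17), Abd-B (-0.49 ± 0.15), Scr (-0.57 ± 0.14), Dfd (-0.48 ± 0.19) and lab (-0.65 ± 0.22). In the otk-1 RNAi embryos 7 of the 8 passed as lower and in otk-2 RNAi none did (medians -0.49 and -0.32). The reduction held at 6 of 8 without either WT library and at 3 without double RNAi replicate 2. With the stage score in the fit none passed, although the median reduction (-0.68) was no smaller.

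Transcripts that the mother loads into the egg were higher in the double RNAi embryos, where 22.5% of all tested genes were higher. Of the genes of maternal axis formation, 13 of 22 were higher and 2 lower (median 0.70). The rises included the posterior determinant osk (1.77 ± 0.73), exu, which localises bicoid mRNA (1.83 ± 0.52), the posterior homeobox gene cad (1.58 ± 0.30) and ea, the protease downstream of gd (1.39 ± 0.28), while pip (-0.94 ± 0.16) and tsl (-0.43 ± 0.19) were lower. In the germ plasm and pole cell list 6 of 12 were higher, among them the germline helicase vas (1.21 ± 0.38), the Piwi proteins piwi (1.22 ± 0.37) and aub (0.75 ± 0.26) and the germ cell gap junction gene zpg (1.43 ± 0.52), and capu (-0.47 ± 0.13) was lower. Of egg activation and maternal mRNA clearance genes, 13 of 17 were higher and none lower (median 1.13). These included the maternal α-tubulin alphaTub67C (2.05 and 22.9 CPM in WT and 47.3 and 96.9 CPM in the double RNAi embryos, 2.53 ± 0.72, adjusted p = 0.0167), gnu (2.28 ± 0.61) and png (1.72 ± 0.43) of the kinase that activates the egg, and the translational repressor cup (1.73 ± 0.49). The WT libraries lay far apart at alphaTub67C, with replicate 2 the nearer to the double RNAi libraries.

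The division and protein turnover machinery rose with these maternal transcripts. In the cell cycle list 18 of 28 were higher and none lower, with aurA (1.16 ± 0.21), CycB (0.89 ± 0.30), BubR1 (0.87 ± 0.24) and RnrL (0.85 ± 0.30) at the top. Of proteasome subunits 24 of 32 were higher and none lower, with a median of 0.58 and Prosalpha4 (1.55 ± 0.30) and Prosalpha7 (1.44 ± 0.24) as the largest. Of the first genes the zygote transcribes, 3 of 22 were higher, below the 22.5% of all tested genes, namely bnk, a regulator of cellularization (1.36 ± 0.61), the sex signal sisA (1.06 ± 0.25) and the gap gene hb (0.65 ± 0.29), and without WT replicate 1 none was higher and 2 were lower. Cytosolic ribosomal protein genes were largely outside this pattern, with 6 of 90 higher and 1 lower. The maternal, cell cycle and proteasome rises moved with the stage score and differed between the WT libraries. The score is built in part on the axis, germ plasm and first zygotic lists, so for these lists the link was set in advance. Without WT replicate 1, 3 egg activation genes, 4 axis genes, 1 germ plasm gene, 1 cell cycle gene and 13 proteasome genes were higher, and 1 axis gene and 1 germ plasm gene were lower. Without double RNAi replicate 2 the numbers that were higher were 6, 5, 1, 4 and 15 in the same order. When the score entered the fit the medians were -0.21, -0.20, -0.21, -0.33 and 0.17, with no member called.

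Genes of the larval cuticle were strongly reduced, where 24.4% of all tested genes were lower. Of 98 CPR family cuticle proteins, the chitin-binding proteins that make up most of the cuticle, 54 passed the filter on low counts and 42 of these were lower and none higher (median -2.46). Their summed level was 956 and 866 CPM in WT and 81.2 and 252 CPM in the double RNAi embryos. Cpr64Ad, for example, measured 102 and 106 CPM in WT and 2.5 and 12.2 CPM in the double RNAi embryos (-3.81 ± 0.72, adjusted p = 0.00283). Both double RNAi libraries were below WT, in this gene as in the sum, with replicate 1 the lower of the pair. Tweedle proteins, another cuticle family, gave 19 of 21 lower, and TwdlF measured 556 and 351 CPM in WT and 9.42 and 105 CPM in the double RNAi embryos (-2.98 ± 0.84, adjusted p = 0.0162). All 6 obstructor genes, whose proteins organise chitin, were lower, among them obst-E (-2.26 ± 0.73), obst-A (-1.72 ± 0.27) and Gasp (-1.12 ± 0.24), as were 16 of 17 Osiris genes, with Osi9 at -2.52 ± 0.50. Chitin assembly genes gave 10 of 18 lower, such as Cht7 (-1.86 ± 0.37), the deacetylase Cda5 (-1.43 ± 0.32) and reb, which is needed for chitin deposition (-1.73 ± 0.35).

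Cuticle tanning and the shaping of denticles followed the same direction, again where 24.4% of all tested genes were lower. Ddc (3.5 and 4.61 CPM in WT and 0.513 and 0.728 CPM in the double RNAi embryos, -2.69 ± 0.57, adjusted p = 0.00459) and ple (-2.52 ± 0.50), which turn tyrosine into dopamine for hardening, were lower with 5 other members of a list of 12, and y was the one member that was higher. Of 13 genes for denticles and the apical matrix, 7 were lower, among them the zona pellucida genes zye (-2.59 ± 0.66), dyl (-1.91 ± 0.44) and pio (-0.70 ± 0.16) and the actin bundler f (-1.59 ± 0.33). The CPR count was 34 without WT replicate 1 and 41 without WT replicate 2. Other cuticle lists moved more with 1 library left out: the Osiris genes that were lower numbered 8 without WT replicate 1, the denticle genes 4 without WT replicate 1 and 11 without WT replicate 2, and the Tweedle genes 11 without double RNAi replicate 1. When the stage score, which is built in part on the CPR list, entered the fit, no CPR gene passed and the median was -0.68.

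Smooth septate junction genes, which seal endodermal epithelia, were lower at all 4 members, where 24.4% of all tested genes were lower. The membrane protein gene mesh measured 306 and 216 CPM in WT, 114 and 103 CPM in otk-1 RNAi, 204 and 156 CPM in otk-2 RNAi and 106 and 109.9 CPM in the double RNAi embryos (-1.27 ± 0.27, adjusted p = 0.00422), so that otk-1 RNAi and double RNAi libraries formed the low end. Tsp2A (-1.18 ± 0.24), hoka (-0.94 ± 0.22) and Ssk (-0.65 ± 0.27) were lower as well, and without WT replicate 1 the reduction passed at 2 of the 4. In the pleated septate junctions of ectoderm, 10 of 25 genes were lower by smaller amounts, including Gli (-0.58 ± 0.11), Nrg (-0.52 ± 0.18), Fas3 (-0.49 ± 0.17), cora (-0.47 ± 0.19) and l(2)gl (-0.37 ± 0.09), while dlg1 (-0.05 ± 0.12) did not pass. This number was 2 without WT replicate 1 and 2 without double RNAi replicate 2. The adherens junction and polarity list had 3 higher, led by par-6 (0.62 ± 0.17), and 1 lower, sdt (-0.47 ± 0.11), of 12. The higher count lay near the 22.5% of all tested genes, and the lower count was below 24.4%. The list median was 0.04, and -0.05 without WT replicate 1.

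Markers of differentiated tissues were lower across germ layers, where 24.4% of all tested genes were lower and 22.5% higher. In neurons 16 of 22 were lower and none higher, with a summed level of 2232 and 1555 CPM in WT and 1312 and 1076 CPM in the double RNAi embryos. The sodium channel para measured 16.7 and 8.95 CPM in WT, 5.74 and 4.97 CPM in otk-1 RNAi, 12.3 and 10.2 CPM in otk-2 RNAi and 3.4 and 3.99 CPM in the double RNAi embryos (-1.79 ± 0.36, adjusted p = 0.00351), and the synaptic scaffolds brp (-1.44 ± 0.33) and Rim (-1.59 ± 0.37) and the potassium channel Sh (-1.61 ± 0.34) were lower too. Axon guidance genes were lower at 10 of 24, with robo3 (-0.94 ± 0.27) and comm (-0.60 ± 0.25), which controls Robo at the midline, among them. In glia 4 of 8 were lower, including the glial determinant repo (-0.65 ± 0.17). Peptide hormones gave 9 of 18 lower, and Ilp4, an insulin-like peptide of the early embryo, was higher (0.50 ± 0.22). In muscle 20 of 22 sarcomere genes were lower, among them Mf (125 and 76.7 CPM in WT and 13.6 and 32.7 CPM in the double RNAi embryos, -2.12 ± 0.39, adjusted p = 0.00261), Prm, which encodes paramyosin (-1.67 ± 0.36), and TpnC25D, a troponin C (-2.40 ± 0.64). Earlier mesodermal regulators were lower at 11 of 19, with bap (-0.91 ± 0.27) and bin (-0.60 ± 0.19) of the visceral mesoderm. Without WT replicate 1 the numbers that were lower fell to 4 for neurons, 3 for axon guidance, 4 for peptide hormones and 8 for sarcomeres, and without double RNAi replicate 2 to 0 for axon guidance and 2 for mesodermal regulators. With the stage score, built in part on the neuron and sarcomere lists, in the fit, no gene of these lists passed.

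The larval gut showed the deepest reductions. Of 45 digestive enzyme genes 34 passed the filter on low counts. Where 24.4% of all tested genes were lower and 22.5% higher, 23 of these 34 were lower and 2 higher (median -3.81). Their summed level was 465 and 426 CPM in WT, 101 and 95.3 CPM in otk-1 RNAi, 82.9 and 107 CPM in otk-2 RNAi and 103 and 101 CPM in the double RNAi embryos. The 6 RNAi libraries were all far below WT. Jon25Bi, a Jonah protease, measured 38.1 and 27.7 CPM in WT and 2.53 and 0.054 CPM in the double RNAi embryos, and near-identical copies make single values of this family uncertain. LysX, a lysozyme (3.56 ± 0.81), and the maltase Mal-A5 (1.01 ± 0.25) were the members that were higher. Without double RNAi replicate 2, 14 members were lower and 1 was higher.

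Of blood cell genes 6 of 13 were lower, among them both type IV collagen chains vkg (635 and 408 CPM in WT and 178 and 194 CPM in the double RNAi embryos, -1.49 ± 0.32, adjusted p = 0.00479) and Col4a1 (-1.44 ± 0.30) and the phagocytosis receptor NimC1 (-1.56 ± 0.58), and crq, a scavenger receptor, was higher (0.69 ± 0.14). Trachea and salivary gland genes were lower at 8 of 9, with the tracheal selector trh at -0.84 ± 0.18, and at 5 without WT replicate 1 and 4 without double RNAi replicate 2. Fat body genes gave 2 of 7 lower, near the 24.4% of all tested genes (median -0.26). The storage protein gene Lsp1gamma was among those lower (-2.71 ± 0.60). As checks on other tissue in the collections, 2 of 17 eggshell genes and 2 of 10 testis genes passed the filter on low counts. Their summed levels were 3.57 and 3.42 CPM in WT and 4.18 and 4.04 CPM in the double RNAi embryos for eggshell, and 8.3 and 18.4 and 24.5 and 32.9 CPM for testis.

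Of other signalling pathways, FGF and PVR genes were lower most often, and the counts of the others are set against 22.5% higher and 24.4% lower among all tested genes. FGF and PVR genes were lower at 8 of 10 and higher at none, among them the receptors Pvr (149 and 114 CPM in WT and 90.1 and 74.7 CPM in the double RNAi embryos, -0.68 ± 0.16, adjusted p = 0.00748) and htl (-0.45 ± 0.13) and the FGF ligands ths (-0.52 ± 0.14), pyr (-0.50 ± 0.16) and bnl (-0.44 ± 0.13), and 3 of the 10 were lower without double RNAi replicate 2. In the EGF receptor pathway 8 of 23 were lower, including Egfr (-0.42 ± 0.17) and its induced feedback genes kek1 (-0.58 ± 0.22) and sty (-0.56 ± 0.16), and 3 were higher, including Ras85D (0.90 ± 0.14). The Hedgehog list had 4 of 13 higher, led by Su(fu) (0.70 ± 0.13), with hh as the one lower member. Notch genes gave 8 higher and 4 lower of 26, with the ligand Ser (-0.63 ± 0.15) and its modifier fng (-0.62 ± 0.20) lower. Hippo genes gave 3 higher and 6 lower of 18, with the cadherin ds (-0.66 ± 0.16) and the induced regulator ex (-0.66 ± 0.17) lower. Dpp genes gave 4 and 4 of 21, with the feedback inhibitor Dad lower (-0.70 ± 0.13). Ecdysone genes were lower at 5 of 19, close to that share, such as Eip74EF (-1.06 ± 0.24) and Eip78C (-1.0 ± 0.14). The direction of several lists rested on WT replicate 1. Without it, higher and lower members numbered 0 and 8 for Dpp, 1 and 7 for Notch, 1 and 3 for Hedgehog, 0 and 6 for Hippo, 1 and 5 for EGF receptor and 1 and 3 for ecdysone genes. Without double RNAi replicate 2 the numbers lower were 2 for EGF receptor and 2 for Hippo genes.

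Detoxification genes contained members with large changes in both directions. Cytochrome P450 genes gave 13 higher and 20 lower of 66, and glutathione transferases 12 and 8 of 34. Apart from the transferases that were higher, these counts lay near the shares of all tested genes, 22.5% higher and 24.4% lower. They became 11 and 12 for P450 genes and 7 and 4 for transferases without WT replicate 1. Cyp6d4 measured 7.44 and 6.78 CPM in WT, 51.7 and 61.4 CPM in otk-1 RNAi, 8.6 and 10.5 CPM in otk-2 RNAi and 55.9 and 69.7 CPM in the double RNAi embryos (3.14 ± 0.25, adjusted p = 4.93e-06). GstT3 measured 8.33 and 10.6 CPM in WT, 54.4 and 55.9 CPM in otk-1 RNAi, 12.3 and 14.3 CPM in otk-2 RNAi and 54.3 and 60.6 CPM in the double RNAi embryos (2.61 ± 0.18, adjusted p = 3.85e-06). In these genes the 2 genotypes with the otk-1 hairpin were high, and WT and otk-2 RNAi were low. GstD3 (2.81 ± 0.43), Cyp6a19 (3.06 ± 0.72) and Cyp6a14 (1.63 ± 0.54) were also higher, while Cyp18a1, which inactivates ecdysone (-1.54 ± 0.31), Cyp4g15 (-1.78 ± 0.40) and GstE1 (-1.48 ± 0.24) were lower. Of 10 small RNA silencing genes 5 were higher, namely the piRNA factors armi (1.55 ± 0.40) and AGO3 (1.01 ± 0.31) and r2d2 (0.66 ± 0.17), Trax (0.41 ± 0.13) and trsn (0.37 ± 0.14) of the siRNA pathway. AGO2, which carries siRNAs (-0.21 ± 0.14), and Dcr-2, which makes them (0.33 ± 0.17), did not pass, nor did AGO1 (-0.09 ± 0.12), Dcr-1 (0.10 ± 0.19) and loqs (0.06 ± 0.12). None of the 10 passed without WT replicate 1, and without double RNAi replicate 2 1 was higher. Heat shock genes varied within genotypes, as Hsp70Bbb measured 2.39 and 184 CPM in WT and 0.352 and 71 CPM in the double RNAi embryos, and of 14 tested only Hsp26 (14.6 and 112 CPM in WT and 168 and 503 CPM in the double RNAi embryos, 2.41 ± 0.76, adjusted p = 0.0254) and Hsp27 (1.14 ± 0.39) were higher, neither of which passed without WT replicate 1 or without double RNAi replicate 2.

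Genes used as markers in fly stocks also separated the genotypes. The eye colour transporter gene w measured 143 and 134 CPM in WT, 11.6 and 11.5 CPM in otk-1 RNAi, 11.1 and 10.2 CPM in otk-2 RNAi and 14.7 and 11.9 CPM in the double RNAi embryos (-3.38 ± 0.17, adjusted p = 1.11e-07), with all 6 RNAi libraries far below WT. For the body colour gene y the values were 3.03 and 4.15 CPM in WT, 18.7 and 23.2 CPM in otk-1 RNAi, 28.9 and 28.8 CPM in otk-2 RNAi and 30.7 and 29.5 CPM in the double RNAi embryos (3.07 ± 0.23, adjusted p = 3.86e-06). The eye pigment gene v measured 10.7 and 8.41 CPM in WT, 3.33 and 3.43 CPM in otk-1 RNAi, 9.43 and 11 CPM in otk-2 RNAi and 3.24 and 3.59 CPM in the double RNAi embryos (-1.49 ± 0.29, adjusted p = 0.00333), so it was low in both genotypes with the otk-1 hairpin and at the WT level in otk-2 RNAi. RNAi and WT embryos therefore differed at these X-linked marker genes, at v only with the otk-1 hairpin, and the part of stock background in other differences from WT was not tested.

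Adding the otk-2 hairpin to the otk-1 hairpin changed few genes. Between double RNAi and otk-1 RNAi embryos 26 genes differed (0.233%), 18 higher (0.161%) and 8 lower (0.0717%), and 65 by DESeq2. Besides otk2, the abundant gene arm was lower, at 1496 and 1368 CPM in otk-1 RNAi and 689.5 and 671 CPM in the double RNAi embryos (-1.07 ± 0.11, adjusted p = 0.00083). The p24 cargo receptor gene p24-2 (23.4 and 23.8 and then 9.55 and 9.33 CPM, -1.32 ± 0.21, adjusted p = 0.0205) and Ptp52F, a receptor tyrosine phosphatase of axons (24.4 and 18 and then 9.8 and 6.74 CPM, -1.36 ± 0.23, adjusted p = 0.0268), were lower as well. WT embryos had only 6.77 and 5.89 CPM of Ptp52F. Its level was thus raised with the otk-1 hairpin alone (1.74 ± 0.23), while double RNAi embryos were not called different from WT (0.38 ± 0.23). Among the rises, poe, which encodes a very large calmodulin-binding protein, measured 224 and 281 CPM in WT, 364 and 389.7 CPM in otk-1 RNAi, 968 and 748 CPM in otk-2 RNAi and 1114 and 840.0 CPM in the double RNAi embryos (1.37 ± 0.19, adjusted p = 0.00558). MED20, a subunit of the Mediator complex, measured 10.4 and 12 CPM in WT, 17.5 and 15.1 CPM in otk-1 RNAi, 37.6 and 32.3 CPM in otk-2 RNAi and 40.9 and 30.6 CPM in the double RNAi embryos (1.14 ± 0.18, adjusted p = 0.0205). These neighbours lie on the minus strand of 2L, poe at 8054322 to 8071624 and MED20 at 8071812 to 8072848, and both were high in the 2 genotypes with the otk-2 hairpin. The genes thw (10.5 and 7.43 and then 44.1 and 35.8 CPM, 2.16 ± 0.28, adjusted p = 0.00399) and axo, related to neurexins (1.58 ± 0.30), were higher, as was kek4, a leucine-rich repeat receptor gene of low level (0.159 and 0.296 and then 4.2 and 5.13 CPM, 4.33 ± 0.49, adjusted p = 0.00102), which was chosen after its values were seen. WT embryos had 20.6 and 18.8 CPM of thw. That gene was thus below WT with the otk-1 hairpin alone (-1.14 ± 0.27) and above WT with both hairpins (1.02 ± 0.27). MsrA, which repairs oxidised methionine, measured 36.3 and 27.7 CPM in WT, 32.8 and 36.8 CPM in otk-1 RNAi, 31.7 and 30.2 CPM in otk-2 RNAi and 62.4 and 65.7 CPM in the double RNAi embryos, so the double RNAi libraries stood above all others shown, and it differed from otk-1 RNAi (0.88 ± 0.14, adjusted p = 0.0214), from otk-2 RNAi (1.05 ± 0.14, adjusted p = 0.00201) and from WT (1.0 ± 0.14, adjusted p = 0.000633). The non-additive term described below did not pass for MsrA (0.93 ± 0.20, adjusted p = 0.163).

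The effect of a hairpin against otk-2 could also be read in libraries that this comparison does not use, as otk-2 RNAi against WT, where 199 genes passed (1.78%). Whether it was the same line is not stated. Of the 18 genes that were higher, 10 were also called higher there (55.6% of these and 18.9% of 53), and of the 8 that were lower, 4 were called lower (50% of these and 2.74% of the 146 that made up 1.31% of tested genes). None was called in the opposite direction. The paired values were -1.07 ± 0.11 and -1.05 ± 0.11 for arm, -1.27 ± 0.14 and -1.31 ± 0.14 for otk2, -1.32 ± 0.21 and -1.51 ± 0.21 for p24-2, and 1.37 ± 0.19 and 1.76 ± 0.19 for poe. Ptp52F (0.12 ± 0.23), MsrA (-0.05 ± 0.14) and phu (-0.09 ± 0.13, and -0.63 ± 0.13 in the double RNAi) did not pass in otk-2 RNAi against WT. The count of 26 fell to 6 without otk-1 RNAi replicate 1, to 7 without replicate 2 and to 12 without double RNAi replicate 1.

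**Figure D5:**
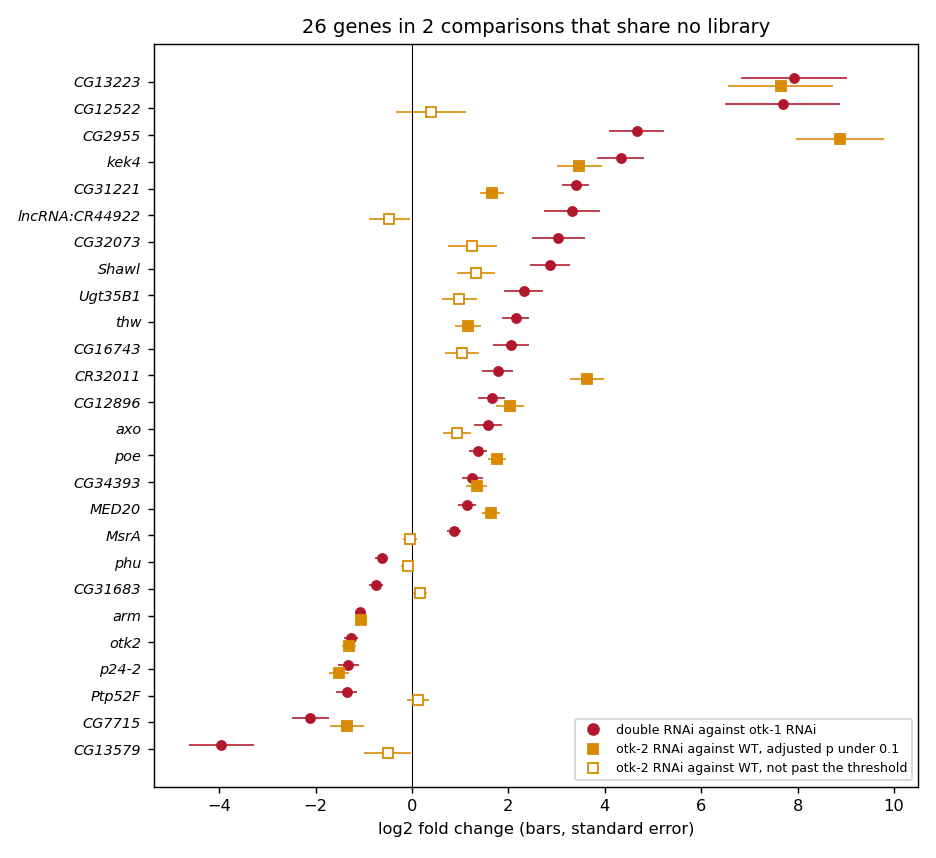
Log2 fold change (x axis, bars are standard errors) of the 26 genes that differed between double RNAi and otk-1 RNAi (red circles), with the values of otk-2 RNAi against WT (orange squares, filled where called). The arm values were -1.07 and -1.05. For CG13223 and CG2955, which have libraries at 0 counts among the references, the fitted values depend on the prior count and are no estimate of size.

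Adding the otk-1 hairpin to the otk-2 hairpin changed more genes. Between double RNAi and otk-2 RNAi embryos 968 genes differed (8.68%), 400 higher (3.59%) and 568 lower (5.09%). Xenobiotic genes led the rises, with Cyp6d4 (2.72 ± 0.24, adjusted p = 4.46e-05), GstT3 (2.11 ± 0.18, adjusted p = 2.35e-05), GstD3 (2.47 ± 0.42), Cyp4p2 (2.27 ± 0.33) and Cyp6a20 (2.12 ± 0.31), and 11 of 66 P450 genes and 6 of 34 transferases were higher, and 5 and 1 were lower. GILT3 was higher too (1.47 ± 0.28, adjusted p = 0.0146), and gd (1.77 ± 0.50) was also higher. The GILT3 call was lost without otk-2 RNAi replicate 1, and that of gd without otk-2 RNAi replicate 1, otk-2 RNAi replicate 2 or double RNAi replicate 2. Cuticle genes led the falls, among them ckd (9.74 and 6.04 CPM in WT, 2.16 and 2.55 CPM in otk-1 RNAi, 4.85 and 6.03 CPM in otk-2 RNAi and 0.352 and 1.05 CPM in the double RNAi embryos, -2.92 ± 0.57, adjusted p = 0.0156), TwdlG (-2.55 ± 0.68), obst-E (-2.28 ± 0.73) and Ccp84Ag (-2.26 ± 0.71). In all 13 of 54 CPR genes, 6 of 21 Tweedle genes, 6 of 17 Osiris genes and 7 of 22 sarcomere genes were lower. These falls rested on single libraries: the 568 genes that were lower became 45 without double RNAi replicate 1, 45 without otk-2 RNAi replicate 2, 161 without otk-2 RNAi replicate 1 and 431 without double RNAi replicate 2. In the same order, 1, 0, 6 and 19 CPR genes and 0, 0, 1 and 4 sarcomere genes were lower, and no Tweedle or Osiris gene passed without double RNAi replicate 1 or without otk-2 RNAi replicate 2. The 400 genes that were higher became 97 to 216. The otk transcript was lower than in otk-2 RNAi (-0.82 ± 0.18, adjusted p = 0.0272), a call lost without double RNAi replicate 2 (-0.56) or otk-2 RNAi replicate 1 (-0.59), and arm did not pass (0.06 ± 0.11). The double RNAi libraries lay below otk-2 RNAi in stage score, and the number of genes was 168 to 628 with 1 library left out and 43 when the score entered the fit.

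A hairpin against otk-1, which may or may not be the same line, was read in the disjoint pair of otk-1 RNAi against WT, where 5074 genes passed (45.5%). Of the 400 genes that were higher in the double RNAi than in otk-2 RNAi, 339 were also called higher there (84.8% of these and 14.5% of 2343), and of the 568 that were lower, 494 were called lower (87.0% and 18.1% of 2731). In the opposite direction 1 gene was called. The paired values were 2.72 ± 0.24 and 2.99 ± 0.25 for Cyp6d4, 2.11 ± 0.18 and 2.55 ± 0.18 for GstT3, and -1.58 ± 0.29 and -1.50 ± 0.29 for v. In both comparisons the genotype with the otk-1 hairpin had the lower stage score.

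Whether the 2 hairpins together gave the sum of their single effects on the log scale was tested as a non-additive term, the effect of the otk-2 hairpin in otk-1 RNAi embryos minus its effect in WT. It passed at 19 genes (0.17%), 15 higher (0.134%) and 4 lower (0.0359%), and at 95 by DESeq2, and 830 genes had an unadjusted p under 0.05. At 17 of the 19 genes both WT libraries lay outside the range of all 6 RNAi libraries, above it at 13 and below it at 4. Of these genes w (3.91 ± 0.23, adjusted p = 1.03e-06) and y (-2.48 ± 0.31, adjusted p = 0.00642) are the stock markers whose values are given above, and GILT3 (-2.83 ± 0.42, adjusted p = 0.0169) measured 46.7 and 46.2 CPM with the otk-1 hairpin alone and 42.3 and 51.4 CPM with both. Eip78C (1.15 ± 0.20, adjusted p = 0.0652), an ecdysone-induced receptor gene, and regucalcin (1.05 ± 0.20, adjusted p = 0.0729) were lower than WT in each RNAi genotype. For otk (1.06 ± 0.26, adjusted p = 0.241), otk2 (0.04 ± 0.20, adjusted p = 0.971) and arm (-0.02 ± 0.16, adjusted p = 0.98) the term did not pass. The count ranged from 3 to 252 when 1 library was left out, with 252 without WT replicate 2 and 3 without double RNAi replicate 1.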

How the data were processed

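RNA of whole embryos from 20 libraries (10 genotypes, 2 libraries each) was sequenced in paired reads of 151 bp. The authors aligned reads with STAR 2.7.1a to dm6 and deposited the expected count and TPM of each gene from RSEM 1.3.1. The deposited effective length was used to describe called genes, and TPM was not tested. Expected counts (11.6% not whole) were rounded. Of 17714 genes, 426 of the types that the study's methods remove (mitochondrial, rRNA, snoRNA and snRNA genes, 5.98 to 10.9% of a library's counts) were left out, and the 11154 genes averaging at least 10 counts over the libraries were tested. Symbols and positions came from Ensembl annotation BDGP6.54 (17587 genes matched). No source says if counting was stranded. Of 197 named genes, 71 overlap a gene on the other strand, among them otk, Wnt4, arm, poe, mesh, Egfr, w and y. At these 71 the partner's reads may be included.

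All 20 libraries entered 1 fit of edgeR 4.0.16 (TMM, quasi-likelihood test, Benjamini-Hochberg adjusted p under 0.1). Contrasts were the double RNAi against WT, otk-1 RNAi and otk-2 RNAi, and a non-additive term. The threshold follows the study's methods, which tested with DESeq2. With 2 libraries against 2, an exact permutation test cannot go below p = 0.333. Depth (33641557 to 41753919 counts per library) limits only genes near the filter, and the spread between libraries limits the rest (common dispersion 0.0336). A run on simulated counts with known changes used the fit's own dispersions and gave all other genes equal levels across genotypes. It therefore cannot speak to stage differences between the real libraries. Alternatives were DESeq2 1.42.0, RLE scaling, no filter, a threshold of 0.05, only the libraries compared, a block for replicate number, a covariate for the stage score and leaving out each library. The comparison, the 54 gene lists and the naming rule were chosen with earlier results of these data known. The rule names all members of the short Otk, Wnt, segment polarity, Hox, junction, GILT, silencing and marker lists, the 4 largest called changes in each direction of the other lists, the neighbours of otk and otk2, and the 10 largest rises and falls of a comparison (genes averaging 100 counts or more, libraries not overlapping, CG and CR numbers left out). R 4.3.3 and Python 3.11.15 (pandas 2.3.3, numpy 2.4.6, matplotlib 3.10.9) were used.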

Additional observations from a re-analysis of the deposited data

Results flagged for a closer look

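The effect of the otk-2 hairpin differed between otk-1 RNAi embryos and WT embryos, by edgeR's test of the non-additive term, at 7 genes described above or in the gene lists. The difference on the log2 scale was -2.83 for GILT3, -2.48 for y, 3.91 for w, 1.05 for regucalcin and 1.15 for Eip78C. In the hemocyte gene Hml it was 2.51 (adjusted p = 0.0729), with 2.44 and 2.2 CPM in WT, 0.793 and 0.651 CPM in otk-1 RNAi, 0.739 and 0.396 CPM in otk-2 RNAi and 1.06 and 0.971 CPM in the double RNAi embryos, and in the trypsin gene deltaTry it was 8.31 (adjusted p = 0.0729), with 11.6 and 14.5 CPM in WT, 0.508 and 0.118 CPM in otk-1 RNAi, 0.236 and 0.0304 CPM in otk-2 RNAi and 1.86 and 0.27 CPM in the double RNAi embryos. At all 7 genes the WT libraries stood outside the range of the 6 RNAi libraries. Groups of 2 libraries are too small to test a single library for standing apart.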

How the results depend on the processing

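Against WT, the 5223 genes called became 2383 when only the 4 libraries compared were fitted (34.2% of them higher, 48.0% in the full fit), 20 with the stage score as a covariate, and 2160 to 5895 with 1 library left out. DESeq2 called 5285, and RLE scaling, no filter and a threshold of 0.05 stayed within 1.5 times. Against otk-1 RNAi, the 26 genes became 65 by DESeq2 and 6 to 24 with 1 library left out. Against otk-2 RNAi, the 968 became 405 at a threshold of 0.05, 398 with only the libraries compared, 43 with the stage score (90.7% higher, 41.3% in the full fit) and 168 to 628 with 1 library left out, where the share higher ran from 31.4% to 82.8% and the number lower from 45 to 431. The 19 genes of the non-additive term became 5 at a threshold of 0.05, 95 by DESeq2, 30 without the filter, 6 with only the libraries compared, 6 with the stage score, 31 with the replicate block and 3 to 252 with 1 library left out. The cause of these shifts was not tested, beyond fewer libraries in the fits that leave some out.

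The reduction of otk against WT did not pass with the stage score (-1.50, adjusted p = 0.192). Against otk-2 RNAi it did not pass with only the libraries compared (-0.85), with the stage score (-0.92) or without double RNAi replicate 2 or otk-2 RNAi replicate 1 in turn, over leave-one-out values from -1.15 to -0.56. The non-additive term of otk passed by DESeq2 (1.04) and without WT replicate 2 or double RNAi replicate 2 (leave-one-out range 0.73 to 1.33), and that of otk2 changed sign near 0 (range -0.09 to 0.15) without 4 libraries in turn.

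Shared replicate numbers do not mark a shared day or batch in the labels, and with 2 libraries a genotype the replicate 1 deviations correlated across genes at 0.0718 (WT and double RNAi), 0.203 (otk-1 RNAi and double RNAi) and 0.341 (otk-2 RNAi and double RNAi). A fit with the replicate number as a block called 5451, 32, 1074 and 31 genes in the 4 comparisons, and of 195 named genes 194 kept their call against WT and 1 gained it. Other settings cost more of those calls: 64 of the 195 were lost without double RNAi replicate 2, 52 without WT replicate 1, 23 without WT replicate 2, 21 without double RNAi replicate 1, 60 with only the libraries compared, 21 at a threshold of 0.05 and 6 without the filter.

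Of the 195, 34 changed sign with the stage score as a covariate and 143 more lost their call, with Apc2 -0.44, BubR1 -0.31, Cda5 0.03, Col4a1 0.01, CycB -0.43, Cyp4g15 0.29, Dcr-1 -0.45, Dcr-2 -0.52, Drl-2 0.18, Gasp 0.12, Mppe -0.49, NimC1 0.40, PlexA -0.02, Ptp52F -0.02, Rim 0.26, Ror 0.55, Ssk 0.58, TpnC25D 0.45, aub -0.27, brp 0.19, cora 0.03, cup -0.21, dnt -0.52, dsh -0.37, gro -0.18, hb -0.63, hoka 0.09, loqs -0.00, osk -0.32, par-6 -0.07, pds5 -0.27, piwi -0.37, por -0.03 and zpg -0.40. Genes that changed sign with 1 library left out were AGO1 (-0.23 to 0.04), CG8321 (-0.09 to 0.20), Dcr-1 (-0.14 to 0.38), Hsp70Bbb (-8.03 to 3.90), Ror (-0.47 to 0.22), Wnt10 (-0.24 to 0.71), dlg1 (-0.19 to 0.08), dnt (-0.16 to 0.25), gsb (-1.0 to 0.12) and ptc (-0.56 to 0.00), none of them called. Low counts limit GILT3 in WT, gd, kek4, Hml and deltaTry, with few counts in a library.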
